A study of Mus musculus with 2 samples.

Results

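Vascular smooth muscle cells (VSMCs) among the tdTomato+ mesenchymal cells of adult murine skeletal muscle (SkM) are described here, including those rich in mitochondrial transcripts. A cell was taken as a VSMC when it held at least 1500 unique molecular identifiers (UMIs, each standing for 1 captured transcript), had at most 20% of them from the mitochondrial genome (the mt- share), and carried Myh11 and Sorbs2 together at 2500 counts per 1000000 non-mitochondrial UMIs (CPM) or more. It was also required to carry Abcc9, Kcnj8 and Art3 together under 2000 CPM, which set aside pericytes. This rule found 513 cells among the 15388 cells within the depth and mitochondrial limits, and among 17431 deposited barcodes in all. The cells were thus chosen by their measured Myh11, Sorbs2, Abcc9, Kcnj8 and Art3 levels, depth and mt- share, and these values, like every contrast with cells outside the rule, are given as a description.

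Both libraries came from Hic1CreERT2/CreERT2;Rosa26LSLtdTomato/tdTomato mice on a C57BL/6J background, in which tamoxifen (TAM) activates Cre in cells expressing Hic1 and marks them and their descendants with tdTomato. In the E10-P56 library TAM was given by gavage to the pregnant dam at E10 (7.5 mg) and the tibialis anterior muscles of the offspring were collected at postnatal day 56. In the adult pulse library TAM was injected daily at 8 weeks of age (2.5 mg a dose). Its labels give postnatal day 56 as the collection day, whereas the study's text names a later one. Muscles were pooled and sorted for tdTomato+ cells depleted of blood, endothelial and other lineages, so VSMCs that never descended from a Hic1+ cell are outside the sample. Each labelling time is 1 droplet library read from the 3′ end of transcripts, and labelling time, library and version of the counting software cannot be told apart. The labels name v2 or v3 of the 10x chemistry without saying which library used which. The study's methods name v3 for its muscle collected at P56, and chemistry may still differ between the libraries. No test was therefore possible: all intervals are exact 95% intervals for counting error (Poisson for levels, Clopper-Pearson for shares), and a level in CPM is taken on the UMIs summed over the cells of a group unless stated otherwise.

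VSMCs form the muscular coat of arteries and veins. They shorten when calcium, entering through voltage-gated channels or released from the sarcoplasmic reticulum, activates myosin light chain kinase, which lets smooth muscle myosin (Myh11) pull on smooth muscle actin (Acta2). Potassium channels oppose this by holding the membrane at a negative voltage, and the sarcoplasmic reticulum pump, with its inhibitor phospholamban (Pln), takes the calcium back up. The genes of the contractile apparatus are switched on by serum response factor (Srf) and its cofactor myocardin (Myocd), and Notch signalling through Notch3 maintains the mature cell. Pericytes lie on capillaries and share Notch3, Pdgfrb and Rgs5 with VSMCs. The study also names a mural progenitor, the SMCP, beside VSMCs and pericytes.

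The E10-P56 library held 481 VSMCs among 6679 cells within the limits, which is 7.20% (6.59 to 7.85). The adult pulse library held 32 among 8709 cells, which is 0.367% (0.252 to 0.518). Depth per VSMC was similar in order, with a median of 6570 UMIs (1501 to 34770) in the E10-P56 library and 5001 UMIs (1553 to 11209) in the adult pulse library. The libraries shared 15 barcodes, of which 1 belonged to a VSMC in either library. In the E10-P56 library VSMCs were set against 432 pericytes (Abcc9, Kcnj8 and Art3 at least 2000 CPM), 331 other mural cells (Notch3, Rgs5 and Pdgfrb at least 2000 CPM, in neither group above) and 4276 fibroblasts (Pdgfra, Dpt and Cd34 at least 1000 CPM). The adult pulse library held 402, 155 and 6966 such cells. Another 6 and 3 cells met both the VSMC and the pericyte thresholds and entered no group.

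The label was read against markers that the rule did not use. Acta2 reached 16959.6 CPM in E10-P56 VSMCs, against 1296 in pericytes, 4099 in other mural cells and 75.3 in fibroblasts. Adult pulse cells gave the same order, with 11741 CPM in VSMCs, 882 in pericytes, 2424 in other mural cells and 7.62 in fibroblasts. Calponin (Cnn1), an actin-binding protein of differentiated smooth muscle, stood at 484 CPM (461 to 509) in E10-P56 VSMCs, at 1.34 in pericytes (2 UMIs) and at 8.28 in other mural cells (24 UMIs). Pln stood at 691 CPM (663 to 720), 8.04 and 4.48 in the same order. In adult pulse VSMCs Cnn1 and Pln were each counted 45 times, which is 301 CPM (219 to 402), but few cells carried them. Cnn1 was held by 7 of the 32 cells, with 20 of its 45 UMIs in 1 cell, and Pln by 11, whereas Acta2 was counted in all 32. For the adult pulse cells Cnn1 and Pln thus carry little weight for the label. Rgs5 had a median of 3559 CPM in these cells and of 52.3 in E10-P56 VSMCs. The study's text reports VSMCs in the E10-P56 experiment only, so the adult pulse cells bear the name here by the rule. With every cell thinned to 1200 non-mitochondrial UMIs, 37.4% of E10-P56 VSMCs held a Cnn1 UMI and 43.9% a Pln UMI (65.9% and 74.8% before thinning). In fibroblasts of that library, which should lack both, the thinned shares were 0.281% and 0.398%. Among the markers, Myh11 lies at chr16:14194535-14291372, Acta2 at chr19:34241090-34255590, Cnn1 at chr9:22099216-22109630, Pln at chr10:53337667-53345987 and Sorbs2 at chr8:45507788-45827906 of GRCm38.

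Cells just past the thresholds were set beside those just within them. In the E10-P56 library the 25 VSMCs with Myh11 and Sorbs2 at 2500 to 3000 CPM held Acta2 at 8740 CPM, and the 27 cells between 2000 and 2500 held 7042. The 34 VSMCs with an mt- share of 18 to 20% held Acta2 at 15341 CPM and Rgs5 at 1512, and the 36 cells at 20 to 22% that met the markers held 16362 and 336. The 20 VSMCs with 1500 to 2000 UMIs and the 15 cells with 1000 to 1500 UMIs held Acta2 at 7230 and 4933 CPM. The pericyte limit separated few cells, with 5 VSMCs between 1000 and 2000 CPM (Acta2 at 9090 CPM, Rgs5 at 5859) and 3 cells between 2000 and 3000 (3569 and 8388). In the adult pulse library 8 of the 32 VSMCs lay within 2500 to 3000 and 12 other cells within 2000 to 2500, so the size of that group depends on the threshold.

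Transcripts of other cell types were present at low or moderate levels. The 15 fibroblast markers summed to 9450 CPM in E10-P56 VSMCs, against 89112 in fibroblasts, 22969 in other mural cells and 6577 in pericytes, with Gsn the most abundant. A raised fibroblast signal was concentrated in few cells, since 39 of the 481 VSMCs (8.11%) carried them at 0.25 of the fibroblast median or more. Without these 39 cells the comparison with pericytes turned, from a median of 0.58 on the log2 scale (higher in VSMCs) to -1.07. They were picked among the VSMCs by these same markers, so a fall was fixed in advance and only its size is described. Only 1 of the 32 adult pulse VSMCs carried as much. Endothelial markers summed to 744 CPM, of which Fabp4, a fatty acid carrier, gave 2301 of 2439 UMIs, while Pecam1 gave 12. Schwann cell markers summed to 236 CPM, with Cdh19 at 0. Immune markers gave 7 UMIs in all, with Ptprc, Lyz2, C1qa, Cd74 and Tyrobp at 0. Skeletal muscle fibre markers summed to 97.1 CPM (318 UMIs), of which 183 were Tcap. Red blood cell markers gave 39 UMIs.

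VSMCs stood out by their mitochondrial transcripts. In the E10-P56 library the median mt- share was 10.4% in VSMCs (quartiles 6.91 and 14.3%), 2.61% in pericytes, 4.16% in other mural cells and 2.39% in fibroblasts. For the adult pulse it was 7.70%, 3.0%, 5.06% and 2.55% in the same order. VSMCs therefore had the highest median of the 4 groups in both libraries. An mt- share over 10% was seen in 260 of 481 E10-P56 VSMCs (54.1%, 49.5 to 58.6), against 2.31% of pericytes, 14.2% of other mural cells and 4.05% of fibroblasts. Of the adult pulse cells it was seen in 12 of 32 VSMCs (37.5%, 21.1 to 56.3), 2.24% of pericytes, 9.68% of other mural cells and 0.804% of fibroblasts. The rule capped this share at 20%, and a further 185 E10-P56 barcodes and 3 adult pulse barcodes met the markers above that cap.

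**Figure D1:**
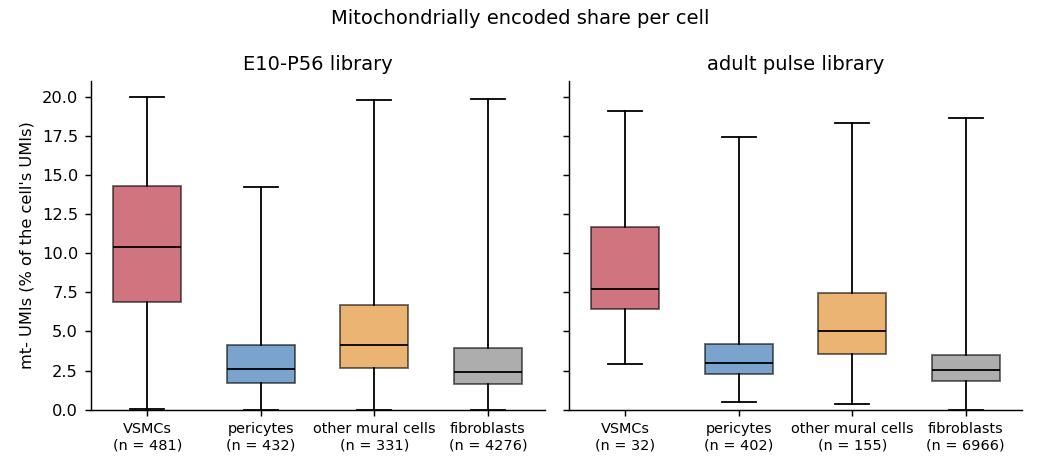
Share of each cell's UMIs that came from the mitochondrial genome (percent, vertical axis) in VSMCs, pericytes, other mural cells and fibroblasts of the E10-P56 and adult pulse libraries; boxes give the median and quartiles and whiskers reach the lowest and highest cell. VSMCs have the highest median in each library, 10.4% and 7.70%, and the rule allowed no cell above 20%.

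All 13 mitochondrially encoded messengers contributed. Per 1000000 UMIs of all kinds they made up 99770 in E10-P56 VSMCs, against 30622 in pericytes, 41484 in other mural cells and 25175 in fibroblasts. Within the mitochondrial UMIs, mt-Atp6 (a subunit of ATP synthase) gave 18.4%, mt-Cytb (complex III) 15.3%, mt-Co3 14.3% and mt-Co2 13.3% (both complex IV). The share of mt-Cytb was 13.6% in pericytes and 11.0% in fibroblasts, and that of mt-Co1 was 11.2% in VSMCs, 13.3% in pericytes and 16.8% in fibroblasts. Some messengers depended on the library more than on the cell type. Adult pulse VSMCs gave mt-Atp8 2.26% of their mitochondrial UMIs, against 0.240% in E10-P56 VSMCs, and the pericytes of the libraries gave 2.26% and 0.392%; the part of the chemistry in this was not tested.

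Nuclear genes for the respiratory chain differed by much less. They summed to 29973 CPM in E10-P56 VSMCs, 24182 in pericytes, 23411 in other mural cells and 17086 in fibroblasts. The same sums were 26429, 23306, 18935 and 16337 in the adult pulse library, which is the same order. Of 78 measured members, 3 were at least 2-fold higher and 2 at least 2-fold lower in VSMCs than in pericytes. The median difference was 0.25 on the log2 scale, beside -0.19 over all 6673 genes with at least 100 UMIs over both groups. Among these 6673 genes 9.97% were at least 2-fold higher and 9.97% at least 2-fold lower, counted here and throughout by the ratio itself, whatever its interval. Ndufa4, a subunit of complex IV, was 8.49-fold higher (7.01 to 10.4) than in pericytes and 4.81-fold higher than in other mural cells. Cox4i2 and Cox7a1, alternative subunits of complex IV, were 4.30-fold and 4.66-fold lower in VSMCs than in pericytes. Ppargc1a, a coactivator that raises mitochondrial gene expression, gave 73 UMIs in E10-P56 VSMCs, 1 in pericytes (ratio 33.2, 5.78 to 1328) and 3 in other mural cells, but 0 in the 32 adult pulse VSMCs. Against pericytes it fell under the minimum of 100 UMIs and was chosen after its values were seen. The 4 measured genes of its list, mitochondrial biogenesis, had a median of -0.17 with 0 past 2-fold, and the whole list summed to 221 CPM in VSMCs and 235 in pericytes.

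The contractile apparatus was higher in VSMCs across most of its genes. Its 29 genes, Myh11 and Sorbs2 of the rule among them, summed to 91468 CPM in E10-P56 VSMCs, 15745 in pericytes, 20961 in other mural cells and 2733 in fibroblasts. Their sums were 55932, 11758, 15300 and 2235 in the adult pulse library. Against pericytes 26 of the 29 were at least 2-fold higher and none at least 2-fold lower, with a median of 3.04 on the log2 scale. Against other mural cells 24 were at least 2-fold higher and none lower, with a median of 2.05 beside -0.06 over all 7420 genes measured there, of which 9.49% were at least 2-fold higher and 9.29% at least 2-fold lower. Without Myh11 and Sorbs2 these counts were 24 and 22 of 27 higher and none lower. The cells were chosen for smooth muscle genes, so this breadth describes the group.

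The members of this apparatus differed widely in size. Tagln, an actin-binding protein of smooth muscle, was 14.7-fold higher than in pericytes (13.9 to 15.5) and 6.37-fold higher than in other mural cells. Acta2 was 13.1-fold (12.5 to 13.7) and 4.14-fold higher. The essential and regulatory myosin light chains Myl6 and Myl9 were also found in pericytes, with VSMC levels 4.75-fold and 2.37-fold higher. Mylk, the kinase that switches smooth muscle myosin on, was 5.94-fold higher than in pericytes (5.57 to 6.34). Larger ratios came from genes nearly absent from pericytes. The intermediate filament gene Synm gave 1732 UMIs in VSMCs and 14 in pericytes (56.4-fold, 33.5 to 103), whereas Des, which encodes its partner desmin, was 3.5-fold higher. Smtn, a cytoskeletal protein of contractile smooth muscle, was 4.07-fold higher than in pericytes and 18-fold higher (15 to 21.8) than in other mural cells. Vcl, which anchors actin to the membrane in every adherent cell, stood at 422 CPM in VSMCs and 412 in pericytes, a ratio of 1.02 (0.932 to 1.13). Actg2, the actin of visceral smooth muscle, was low, at 87.3 CPM in VSMCs, 60.7 in other mural cells and 2.01 in pericytes.

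**Figure D2:**
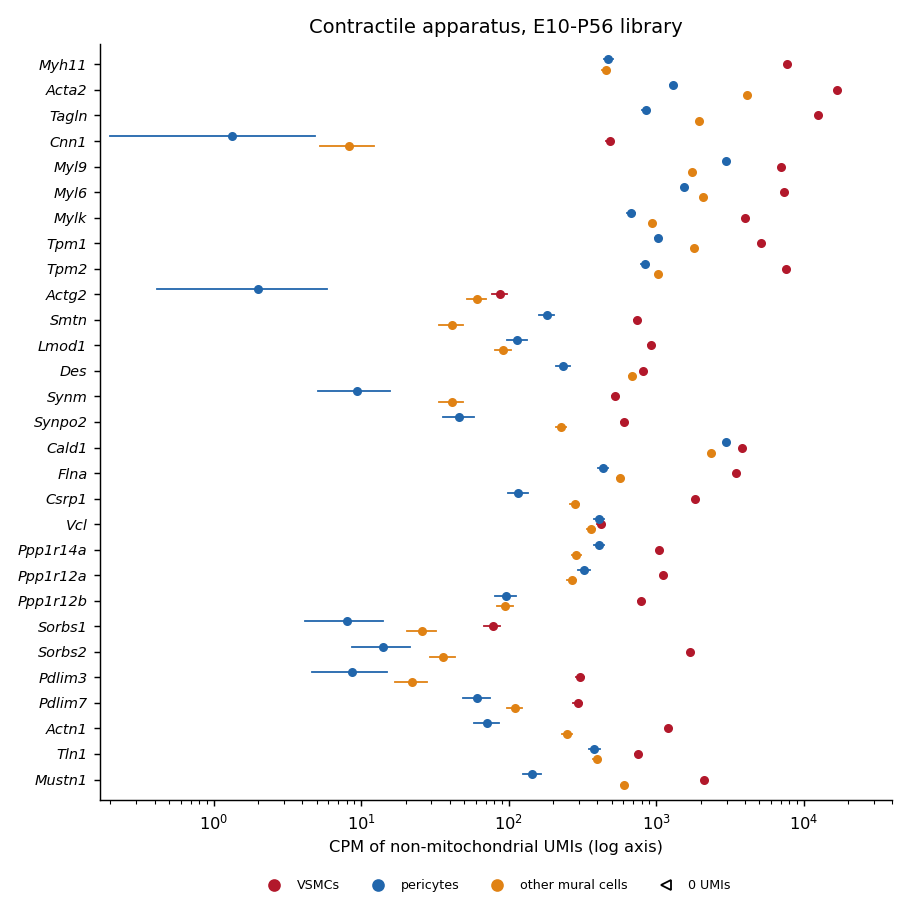
Levels of contractile genes (CPM, log axis) in VSMCs, pericytes and other mural cells of the E10-P56 library; points are levels of the summed UMIs and bars are exact 95% Poisson intervals. VSMCs are highest for Acta2, Tagln and Cnn1, while Vcl lies near 400 CPM in VSMCs and pericytes alike.

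Since Srf acts through the CArG box, the 250 bases before the annotated start of each gene were searched on both strands for that motif in RefSeq promoters of GRCm38.p6. It was found for 3 of the 25 contractile genes with a promoter in the table (12%) and for 439 of 27025 genes in all (1.62%). Among the calcium handling and channel genes it was found for 1 of 27 (Trpc6). The 3 contractile sites are shown because they are all those found. Their genes lie below the median of the apparatus against pericytes, Myl6 and Myl9 higher in VSMCs and Vcl level. Each line gives the gene's strand 5′ to 3′ with the box in capitals, and a match is only a run of letters.
Myl6: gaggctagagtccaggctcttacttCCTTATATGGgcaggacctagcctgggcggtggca
Myl9: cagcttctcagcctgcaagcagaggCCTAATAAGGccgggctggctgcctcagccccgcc
Vcl: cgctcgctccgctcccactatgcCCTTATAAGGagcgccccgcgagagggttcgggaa
The Myl6 stretch is chr10:128493025-128493084 on the minus strand, with the box 50 to 41 bases before the RefSeq start. That start lies inside the gene as the annotation used for the other positions draws it (chr10:128490860-128494145), so this stretch is within Myl6 there. That of Myl9 is chr2:156775278-156775337 on the plus strand, 161 to 152 bases before the start, and that of Vcl is chr14:20929148-20929205 on the plus strand, 227 to 218 bases before the start.

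Calcium handling and ion channel genes formed the next group. Of 35 listed, 29 could be measured against pericytes, of which 17 were at least 2-fold higher and 5 at least 2-fold lower in VSMCs, with a median of 1.74 on the log2 scale. The lower ones include Kcnj8 and Abcc9, the ATP-sensitive potassium channel that the rule used, and without them 17 of 27 were higher and 3 lower (median 1.80). Against other mural cells 18 of 32 were at least 2-fold higher and 4 at least 2-fold lower (median 1.65), and without both 18 of 30 and 2 (median 1.95). With at least 3000 UMIs per cell the medians were 1.75 against pericytes and 1.70 against other mural cells. With cells thinned to 1200 UMIs fewer genes met the minimum, so the medians then rest on fewer genes. Of the list 19 were measured against pericytes, 9 higher and 4 lower (median 0.49). Against other mural cells 17 were measured then, 10 higher and 2 lower (median 1.24). On the sarcoplasmic reticulum, Pln was 86.0-fold higher than in pericytes (49.1 to 167) and Atp2a2, the pump it restrains, 3.49-fold higher (3.21 to 3.81). Release channels went the same way. Itpr1, the receptor for inositol trisphosphate, was 3.61-fold higher (3.04 to 4.32), and Ryr2, the ryanodine receptor, gave 332 UMIs in VSMCs against 1 in pericytes and 1 in other mural cells. Ryr2 met the minimum of 100 UMIs through the VSMCs, as did the channel genes Kcnma1 and Cacna1d below. VSMCs held 3276429 non-mitochondrial UMIs against 1492553 in pericytes, so the minimum admitted genes high in VSMCs more readily. Casq2, which stores calcium inside the reticulum, was 2.47-fold lower than in pericytes yet 3.42-fold higher than in other mural cells.

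Channels of the surface membrane ran from higher to lower in VSMCs. Kcnma1, the large-conductance calcium-activated potassium channel, gave 221 UMIs in E10-P56 VSMCs and 0 in pericytes and other mural cells, which is at least 33.6-fold and at least 65.2-fold higher when 3 UMIs over the group stand for 0, a floor kept for every such ratio and one that leaves out the counting error of the other group. Its accessory subunit Kcnmb1 was 3.71-fold higher than in pericytes (2.66 to 5.32). For voltage-gated potassium channels, the subunit gene Kcnab1 was 39.9-fold higher (20.1 to 92.8) and the pore gene Kcna5 3.34-fold higher. Voltage-gated calcium channels did not follow a single pattern. Cacna1c, the main L-type channel of arteries, stood at 135 CPM in VSMCs and 177 in pericytes, a ratio of 0.766 (0.656 to 0.896). Cacna1d, another L-type channel, gave 172 UMIs in VSMCs and 0 in pericytes, at least 26.1-fold higher, and the T-type channel genes Cacna1h and Cacna1g were 4.21-fold (3.10 to 5.84) and 158-fold (28.1 to 6243, 1 UMI in pericytes) higher. Trpc6, a receptor-operated cation channel, was 3.30-fold lower in VSMCs than in other mural cells.

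Adult pulse VSMCs held few UMIs of these genes. Pln gave 45 UMIs in adult pulse VSMCs and 4 in pericytes of that library, and Atp2a2 stood at 755 CPM (622 to 908) against 293 in pericytes and 228 in other mural cells. Kcnab1 gave 7 UMIs in VSMCs, 2 in pericytes and 3 in other mural cells, and Cacna1d gave 6, 1 and 2. In CPM these were higher in VSMCs than in either group. Kcnma1 gave 2 UMIs and Ryr2 gave 0 in the 32 cells, where 0 UMIs, taken as 3, allow up to 20.05 CPM.

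**Figure D3:**
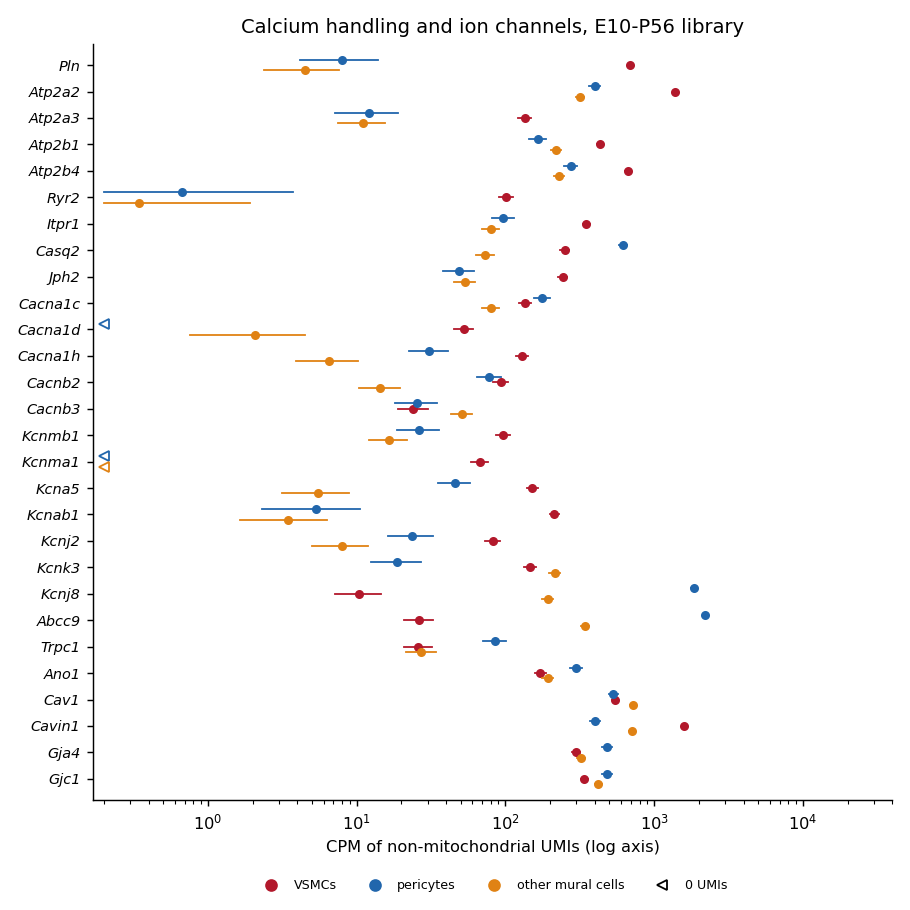
Levels of most measured calcium handling and ion channel genes (CPM, log axis) in VSMCs, pericytes and other mural cells of the E10-P56 library; bars are exact 95% Poisson intervals and open triangles mark 0 UMIs. Pln, Kcnab1 and Itpr1 are highest in VSMCs, Casq2 in pericytes, and Kcnma1 was not counted in pericytes or other mural cells.

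Transcription factors went both ways. Of 20 listed factors 15 were measured against pericytes, with 7 at least 2-fold higher and 2 at least 2-fold lower (median 0.66), and 16 against other mural cells, with 7 higher and 3 lower (median 0.84). Their sum was 3717 CPM in VSMCs, 4634 in pericytes and 4226 in other mural cells, with Ebf1 the most abundant in the latter groups. Myocd was 25.7-fold higher than in pericytes (10.9 to 79.7) and 9.60-fold higher than in other mural cells (6.42 to 14.9). Srf, its partner, is found in most cells and was 2.86-fold and 1.98-fold higher. Foxc1, a forkhead factor of vessel development, was 15.3-fold and 11.3-fold higher. Klf4, which represses smooth muscle genes, was 6.87-fold higher than in pericytes and 2.16-fold higher than in other mural cells. Ebf1, a factor of stromal and pericyte lineages, went the other way and was 3.75-fold lower than in pericytes and 2.92-fold lower than in other mural cells.

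The Notch pathway showed 2 of 8 measured genes at least 2-fold higher and 2 at least 2-fold lower than in pericytes (median 0.36), and 2 higher and 0 lower than in other mural cells (median 0.91). The receptor Notch3 stood at 801 CPM in VSMCs, 1161 in pericytes and 856 in other mural cells. Its ligand gene Jag1 stood at 414, 312 and 220 CPM. The targets diverged. Hey2 was 17.8-fold higher (8.04 to 48.9) in VSMCs than in pericytes, whereas Heyl was 2.39-fold lower than in pericytes and 1.89-fold higher than in other mural cells.

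Receptors and regulators of vessel tone differed in both directions. Of 30 listed, 19 were measured against pericytes, with 4 at least 2-fold higher and 7 at least 2-fold lower (median -0.20, close to the -0.19 over all genes), and 21 against other mural cells, with 9 higher and 7 lower (median 0.83). The thromboxane receptor Tbxa2r gave 151 UMIs in VSMCs and 3 in pericytes (ratio 22.9, 7.70 to 112). The neuropeptide Y receptor Npy1r was 1.64-fold higher than in pericytes and 2.19-fold higher than in other mural cells. Others were lower in VSMCs. Agtr1a, the angiotensin II receptor, was 23.8-fold lower in VSMCs than in pericytes (16.6 to 35.0), Ednrb, an endothelin receptor, 8.85-fold lower (7.61 to 10.3) and Ednra, the other one, 1.77-fold lower. Avpr1a, a vasopressin receptor, stood at 19.8 CPM in VSMCs and 42.9 in pericytes, and the adrenoceptor gene Adra1a at 40.6 and 28.8. Regulators of G-protein signalling also split. Rgs5 was 7.92-fold lower than in pericytes (7.70 to 8.16) and Rgs4 2.38-fold lower. Rgs7bp, which anchors such regulators at the membrane, gave 1011 UMIs in VSMCs and 0 in pericytes, at least 153.5-fold higher at the floor above. In adult pulse cells Rgs7bp gave 16 UMIs in VSMCs and 1 in pericytes, and Ednrb stood at 194 and 496 CPM in the same order.

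Genes of the vessel wall matrix likewise went both ways, with 9 of 21 measured at least 2-fold higher and 6 at least 2-fold lower than in pericytes (median 0.21), and 8 higher and 7 lower of 23 against other mural cells (median 0.52). Eln, the elastin of arterial walls, was 17.9-fold higher than in pericytes (13.2 to 25.1) and 2.49-fold higher than in other mural cells. Itga8, an integrin subunit of smooth muscle, was 28.8-fold and 120-fold higher. The laminin chain gene Lama5 was 32.4-fold and 4.98-fold higher. Basement membrane collagen Col4a1 was lower, by 2.65-fold against pericytes and 2.74-fold against other mural cells, and Col18a1 was 5.27-fold higher than in pericytes but 2.17-fold lower than in other mural cells.

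Markers of pericytes that the rule did not use were low. Of the 7 measured, 6 were at least 2-fold lower and none higher in VSMCs than in pericytes (median -2.99), as counted without Kcnj8, Abcc9 and Art3. Vtn, which encodes vitronectin, was 41.3-fold lower (36.2 to 47.3), Steap4 38.1-fold lower (32.2 to 45.4) and Higd1b 10.5-fold lower. Pdgfrb, the receptor that recruits mural cells to vessels, was 5.09-fold lower. Cspg4, the NG2 proteoglycan often used to mark pericytes, was 1.56-fold higher in VSMCs than in pericytes (1.41 to 1.73) and 4.32-fold higher than in other mural cells.

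The SMCP markers separated VSMCs from other mural cells. All 6 were measured there and 5 were at least 2-fold lower in VSMCs (median -5.16), with a sum of 273 CPM in VSMCs and 1819 in other mural cells. Dlk1 stood at 11.6 CPM in VSMCs and 521 in other mural cells (44.9-fold lower), Adra2a at 4.27 and 187 (43.7-fold), Rgs16 at 6.10 and 231 (37.9-fold) and Ifitm1 at 11.9 and 401 (33.7-fold). Nr4a1, an immediate early gene, gave 679 of the 893 SMCP marker UMIs of the VSMCs. The difference was smaller in the adult pulse library, with sums of 742 CPM in VSMCs and 991 in other mural cells and 81 of the 111 VSMC UMIs from Nr4a1.

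Ribosomal protein genes gave a further difference from other mural cells. They summed to 56821 CPM in E10-P56 VSMCs, 50269 in pericytes, 109115 in other mural cells and 112912 in fibroblasts. In the adult pulse library the sums were 80824, 53527, 101710 and 129748 in that order, so other mural cells lay closer to VSMCs there. Against other mural cells of the E10-P56 library 79 of 79 measured were lower, 30 of them at least 2-fold. The median was -0.90 and the largest difference 2.59-fold (Rpl39). Over all 7420 genes measured there 54.0% were lower. Over the full list of 83 measured symbols, which gave the same 30, the number past 2-fold ran from 16 with each cell weighted alike to 50 with Myh11 and Sorbs2 at 5000 CPM or more, while the median stayed between -0.79 and -1.06. The 79 leave out kinase genes whose symbols resemble theirs, a step taken after the values were seen. Without them 0 of 78 passed 2-fold in either direction against pericytes. The sums keep those genes, which held at most 0.497% of the UMIs of the list in any group. Fibroblast markers, which moved with this comparison, summed to 22969 CPM in other mural cells and 9450 in VSMCs, and their part in it was not tested.

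Immediate early and heat shock genes, which respond to tissue dissociation, were at least 2-fold higher for 12 of 18 measured and lower for none in VSMCs against pericytes (median 1.27). Fos stood at 1424 CPM in VSMCs, 226 in pericytes and 1148 in other mural cells. Against other mural cells 2 of 18 were at least 2-fold higher, with a median of -0.02. The part of dissociation in the differences from pericytes was not tested.

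Outside the lists, the genes with the largest ratios over pericytes, beyond those already given, were Susd5 (241-fold, 2 UMIs in pericytes), Pi15, Plin4 (a coat protein of lipid droplets), Slc22a3 (a transporter of organic cations), Ramp1 (the partner of the receptor for calcitonin gene-related peptide) and Asb2. Slc22a3 gave 923 UMIs in VSMCs and 3 in pericytes. Ramp1 gave 601 and 2 and Plin4 363 and 1. The opposite extreme, beside Kcnj8 and Abcc9, held Fxyd2, a regulator of the sodium pump, with 1 UMI in VSMCs and 102 in pericytes, and Gm14964, Rerg, Dapk2, Nostrin, Tagln3, Plxdc1 and Cpm. Dapk2 gave 7 UMIs in VSMCs and 183 in pericytes and Nostrin, which binds endothelial nitric oxide synthase, gave 5 and 128. Each of these genes met the minimum of 100 UMIs mainly through the group where it was higher.

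Against other mural cells the largest ratios were those of Ryr2, Pln and Itga8, with Trpv1 (the capsaicin receptor channel, 229 UMIs against 1), Chmp4c (220 against 1), Perp (313 against 2), Sh3bgr (444 against 3) and Xirp1 (331 against 3). Slc16a11 and Atcayos, listed on different chromosomes, gave the same counts, 121 against 1 each. Lowest were 1810011H11Rik, Serpina1b, H2-M9, Npw, Dlk1, Adra2a, Piezo2, Cldn15, Rgs16 and Nostrin. H2-M9 gave 11 UMIs in VSMCs and 709 in other mural cells, and Npw, which encodes neuropeptide W, gave 0 and 148, at least 55.7-fold lower. Piezo2, a stretch-activated channel, gave 7 and 260. Here too each gene met the minimum of 100 UMIs mainly through the group where it was higher.

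The most abundant non-mitochondrial transcripts of E10-P56 VSMCs included the nuclear RNA Malat1 (76616 CPM), then Gm42418, which overlaps ribosomal RNA (30298 CPM), Acta2 and Tagln. Others among the 20 most abundant were the contractile genes Myh11, Tpm1, Tpm2, Myl6, Myl9, Mylk, Cald1 and Flna, the cytoskeletal genes Actb, Vim and Dstn, and Crip1, Sparcl1, Igfbp7, Fth1 and AY036118.

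VSMCs with an mt- share over 10% were then set against those at or under it, within the E10-P56 library. The 260 mt-rich cells held a median of 13.97% mitochondrial UMIs and 850 mitochondrial UMIs per cell. The 221 mt-poor cells held 6.74% and 444. The median depth without mitochondrial UMIs was 5239 and 6694, so the mt-rich cells held more mitochondrial UMIs and fewer others. Of 5037 genes measured, 22 (0.437%) were at least 2-fold higher and 110 (2.18%) at least 2-fold lower in mt-rich cells, so the large majority lay within 2-fold. Without the 39 cells of raised fibroblast signal the counts were 13 and 41, and with Myh11 and Sorbs2 at 5000 CPM or more 5 and 11.

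Nuclear respiratory chain genes did not follow the mitochondrial transcripts in the E10-P56 library. They summed to 30370 CPM in mt-rich and 29646 in mt-poor cells, with 0 of 77 measured past 2-fold and a median of 0.03 beside 0.01 over all genes. The extremes were Ndufs1, a subunit of complex I that was 1.5-fold higher (1.20 to 1.88), and Ndufa7, at a ratio of 0.746. In the 12 mt-rich and 20 mt-poor adult pulse VSMCs the sums were 34177 (32455 to 35968) and 23292 (22384 to 24227), so there they were higher in mt-rich cells. Immediate early and heat shock genes moved with them, at 19245 CPM in mt-rich and 10299 in mt-poor adult cells, as did depth, with a median of 2490 and 5338 non-mitochondrial UMIs, and their part was not tested.

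Contractile and channel genes were slightly higher in mt-rich cells of the E10-P56 library. Of 29 contractile genes 26 had a ratio above 1, beside 51.0% of all 5037 genes measured. Of these 29, 1 (Actg2) was at least 2-fold lower (median 0.32). Of 25 channel and calcium genes 23 had a ratio above 1, beside the same 51.0% of all genes, and their median was 0.57. Of these 25, 1 passed 2-fold, Kcnma1, which was 2.01-fold higher (1.52 to 2.68). Myh11 was 1.49-fold higher, but it and Sorbs2 chose the cells. Acta2 was level, at 16947 CPM in mt-rich and 16970 in mt-poor cells. Mylk was 1.55-fold, Flna 1.60-fold, Smtn 1.79-fold, Atp2a2 1.62-fold and Ryr2 1.98-fold higher. The contractile difference depended on the marker threshold. With Myh11 and Sorbs2 at 5000 CPM or more the contractile median was 0.08 and the channel median 0.41. With cells thinned to 1200 UMIs the contractile median was 0.34. The channel median was then 0.14, over the 13 genes still measured, of which 8 were above 0. In the adult pulse library the contractile sum lay the other way, at 52796 CPM (50650 to 55010) in mt-rich and 57201 (55774 to 58656) in mt-poor cells, and Myh11 stood at 4058 and 5304. The channel sum there was 8162 (7331 to 9061) and 5727 (5281 to 6200). Pericyte markers, rule genes among them, moved the other way in the E10-P56 library. They summed to 2802 CPM in mt-rich and 4182 in mt-poor cells, with 4 of 8 measured at least 2-fold lower (median -0.78). Endothelial markers, mostly Fabp4, stood at 456 and 983, and the part of either list was not tested.

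Ribosomal protein genes were lower in mt-rich cells as a group, although 0 passed 2-fold. Their sum was 43755 CPM in mt-rich and 67610 in mt-poor cells. Of those measured, 77 of 77 were lower (median -0.65), from Rpl7l1 at -0.18 to Rps12, 1.94-fold lower. Over all 5037 genes measured in this comparison 49.0% were lower. The median for the ribosomal list lay between -0.48 and -0.75 over the alternatives tried. Adult pulse sums were 76354 (73768 to 79007) and 82633 (80916 to 84378). Fibroblast markers moved with it in the E10-P56 library. They summed to 6728 CPM in mt-rich and 11697 in mt-poor cells, all 15 were lower and 7 at least 2-fold lower (median -0.87). Without the 39 cells of raised fibroblast signal, 25 of them mt-poor, the fibroblast median was -0.04 and the ribosomal median -0.58.

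Across finer bands of the mt- share the sums of E10-P56 VSMCs followed different courses. From the 54 VSMCs under 5% to the 93 between 15 and 20%, ribosomal protein genes went from 78430 to 39594 CPM, Malat1 from 57155 to 104914, Myh11 from 4763 to 10810 and Rgs5 from 3301 to 1008. Nuclear respiratory chain genes went from 29751 to 27221 and Acta2 from 17087 to 15299. The respiratory sum thus stayed within a narrow range. Ribosomal, Malat1 and Myh11 levels ran steadily over the bands, although Myh11 was among the genes that chose the cells. Depth ran with them, with a median of 7741 non-mitochondrial UMIs per cell in the lowest band and 4268 in the highest, and its part was not tested. The adult pulse bands hold 4, 16, 10 and 2 cells and ran differently. Respiratory chain genes went from 21061 to 23742, 32824 and 48834 CPM, ribosomal protein genes from 96704 to 79791, 73196 and 110562, and Malat1 from 97039 to 69579, 107692 and 57339.

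**Figure D4:**
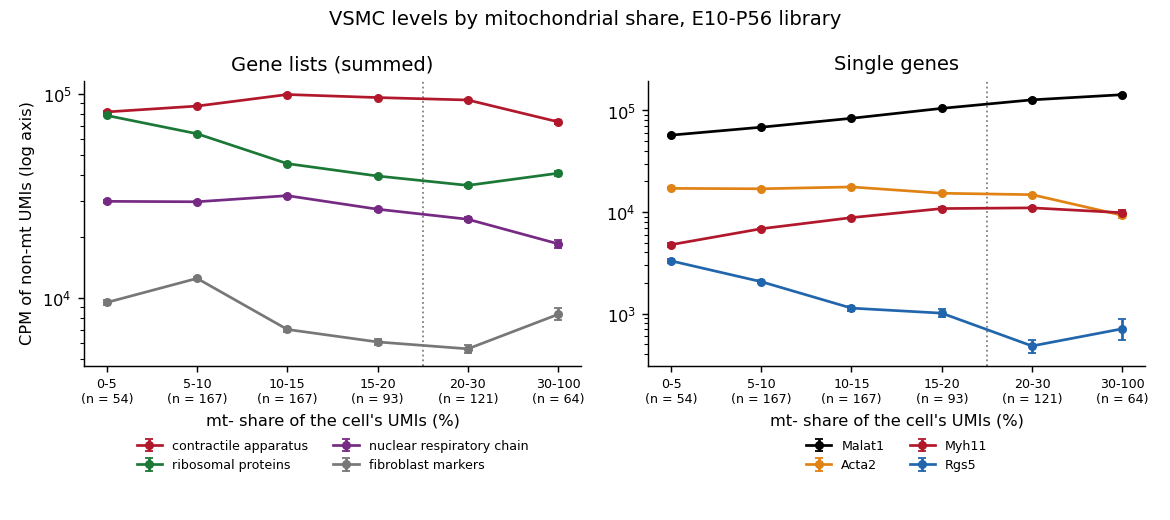
Summed levels of gene lists (CPM) in E10-P56 cells meeting the VSMC markers, by band of mitochondrial share, with Malat1, Acta2, Myh11 and Rgs5 in the right panel (log axes, exact 95% Poisson intervals); the bands past the dotted line, above 20%, lie beyond the rule. Ribosomal protein genes run from 78430 under 5% to 39594 at 15 to 20%, while the nuclear respiratory chain stays between 27221 and 31718 over those 4 bands.

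Single genes that differed most between mt-rich and mt-poor cells were of modest size when higher. Adgrg6, an adhesion receptor, was 2.68-fold higher (2.15 to 3.35), Trpv1 2.49-fold (1.88 to 3.32) and Aqp1, a water channel, 2.25-fold (1.82 to 2.79). Mt3, a metallothionein, was 2.24-fold higher (1.77 to 2.86), and other leading genes were Ppp1r3d, Slc8a2, Kcna2, Wnk2 and Myo18a. In adult pulse VSMCs Mt3 gave 7 UMIs in mt-rich and 0 in mt-poor cells, and Aqp1 13 and 18 (ratio 1.78, 0.804 to 3.85). Several of the lowest were decided by 1 cell. A single cell held 99% of the Gatm UMIs, 83% of Saa3, 80.4% of Thbs4, 63.9% of Cxcl1 and 57.2% of Apoe. For Fst, an activin-binding protein (6.27-fold lower, 4.18 to 9.75), that share was 32.8%. More evenly spread were Postn (4.22-fold lower), Cxcl14 (3.89-fold) and Fabp5 (3.82-fold). On the log2 scale Postn went from -2.08 to -1.01 without the cells of raised fibroblast signal and Fabp5 from -1.94 to -2.11, while Cxcl14 fell under the minimum. In the mt-rich and mt-poor adult pulse cells Fst gave 1 and 43 UMIs, Postn 2 and 26, Cxcl14 1 and 15 and Fabp5 2 and 13. Thbs4 went the other way there, with 6 and 2 (ratio 7.41, 1.33 to 75.1). Without genes of which 1 cell held over 20% of the UMIs, 22 genes were higher and 94 lower.

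Among E10-P56 VSMCs, Rgs5 was the most uneven of the mural genes. It was counted in 241 of the 481 cells, with a median of 52.3 CPM, an upper quartile of 1976 and a highest value of 37943. Its variance was 71.0 times that of counting error, beside a median of 1.25 over 2885 genes with at least 200 UMIs, of which 434 exceeded 2. Contractile genes varied less. Acta2 ran from 270 to 56683 CPM with a median of 14825 (32.7 times counting error). Myh11 ran from 519 to 26396 with a median of 7069, but the rule used it together with Sorbs2. Its spread is therefore bounded by the choice of cells. The fibroblast genes Col3a1, Gsn and Dcn were nearly as uneven as Rgs5 and were counted in 450, 464 and 361 cells. Thbs4 was uneven through 1 cell. Deeper cells held less Rgs5 and more Acta2, with 3077 and 10619 CPM in the 64 cells under 3000 UMIs and 825 and 18469 in the 111 cells from 10000 UMIs.

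The VSMCs of the E10-P56 and adult pulse libraries were compared last. Of 5203 genes measured, 702 (13.5%) were at least 2-fold higher and 242 (4.65%) at least 2-fold lower in E10-P56 VSMCs, with a median of 0.11 on the log2 scale. The adult pulse cells held 149647 non-mitochondrial UMIs in all against 3276429, so an adult gene at a low level was often not counted and the minimum of 100 UMIs was met mainly through the E10-P56 cells. The ratio was above 1 for 2900 genes and below 1 for 2303. Contractile genes were higher in E10-P56 VSMCs, 9 of 29 at least 2-fold and 1 (Actg2) at least 2-fold lower (median 0.69). Acta2 stood at 16960 and 11741 CPM, a ratio of 1.44 (1.38 to 1.52). Synm was 7.19-fold higher (4.01 to 14.4) and Smtn 6.14-fold (3.87 to 10.4). Sorbs2, which the rule used, stood at 1699 CPM in E10-P56 and 194 in adult pulse VSMCs, so adult cells entered mainly through Myh11. Matrix genes (8 of 20 at least 2-fold higher, 2 lower, median 0.79) and calcium and channel genes (11 of 27 higher, 3 lower, median 0.61) were also on the E10-P56 side. With Myh11 and Sorbs2 at 5000 CPM or more, which leaves 10 adult cells, 4 of 29 contractile and 5 of 24 channel genes were at least 2-fold higher. Their medians were 0.66 and 0.48, beside -0.03 over all genes. The 13.5% of all genes that were at least 2-fold higher belongs to the main threshold. No matching share is given for the 5000 CPM threshold, so these 2 counts are not read against all genes. Fibroblast markers moved the same way, 5 of 15 at least 2-fold higher and 1 lower (median 0.57). Without the cells of raised fibroblast signal their median was -0.01, that of the contractile genes 0.73 and that of the channel genes 0.93; the matrix median was not computed without them.

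Pericyte markers lay on the adult pulse side. Without Abcc9, Kcnj8 and Art3, which the rule used, they summed to 3457 CPM in E10-P56 and 6849 in adult pulse VSMCs, with 3 of 7 measured at least 2-fold lower in E10-P56 cells and 1 higher (median -0.95). Rgs5 was 2.39-fold lower (2.20 to 2.59), Vtn 5.47-fold (4.03 to 7.33) and Steap4 5.47-fold lower. Rgs5 was spread over more of the adult cells, with a median of 3559 CPM against 52.3. Endothelial markers lay on the adult side as well, at 744 CPM in E10-P56 and 1657 in adult pulse VSMCs. Fabp4 gave 240 of the 248 adult UMIs. Ribosomal protein genes stood at 56821 CPM in E10-P56 and 80824 in adult pulse VSMCs (median -0.48 without the kinase genes). Fibroblasts of the libraries also differed in genes they should lack, with Acta2 at 75.3 and 7.62 CPM, and the part of free RNA in the differences between the libraries was not tested.

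**Figure D5:**
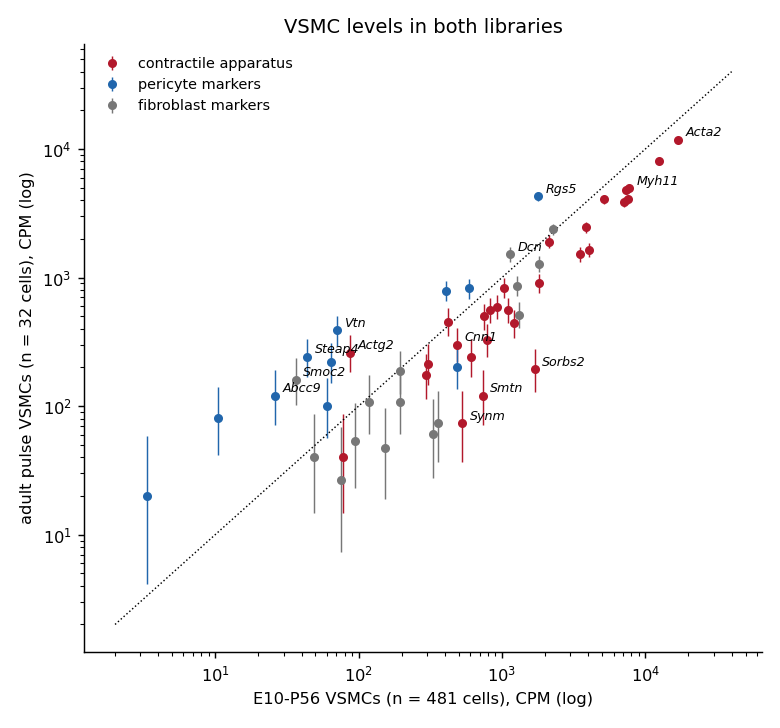
Level of each contractile gene, pericyte marker and fibroblast marker in E10-P56 VSMCs (horizontal, CPM, log axis) against adult pulse VSMCs (vertical, CPM, log axis); bars are exact 95% Poisson intervals of the adult values and the dotted line marks equal levels. Acta2 and Myh11 lie slightly and Synm and Sorbs2 far on the E10-P56 side, while Rgs5 and Vtn lie on the adult pulse side; adult values rest on 32 cells.

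By ratio, the leading genes on the E10-P56 side were Slc22a3 (923 UMIs against 2), Lrrc10b (444 against 1), Plin4 (363 against 1), C3 (657 against 2) and Fjx1 (275 against 1). In CPM their ratios were 21.1 (5.82 to 174), 20.3 (3.62 to 803), 16.6 (2.96 to 657), 15 (4.14 to 124) and 12.6 (2.24 to 498) in that order. These genes met the minimum of 100 UMIs through the E10-P56 cells. On the adult pulse side, beside Vtn, Sdc1, a heparan sulphate proteoglycan, was 8.32-fold lower in E10-P56 VSMCs (5.57 to 12.2). Sytl2 was 8.01-fold lower, Apold1 6.72-fold and Hmcn2 5.52-fold. These lower genes rest on 28 to 58 adult UMIs each.

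Genes of the lineage tracing system were read last. The tdTomato reporter stood at 2477 CPM in E10-P56 VSMCs, 2344 in pericytes, 2029 in other mural cells and 1144 in fibroblasts. It stood at 2793, 3317, 2728 and 2089 in the adult pulse library. VSMCs of both libraries thus carried it at levels of the same order as pericytes and other mural cells. Hic1 itself was low in VSMCs, at 9.46 CPM (31 UMIs) against 200 in pericytes (298 UMIs), 49.7 in other mural cells and 49.1 in fibroblasts. Adult pulse VSMCs held 2 Hic1 UMIs, at 13.4 CPM, against 149 in pericytes. The CreERT2 transcript gave 0 UMIs in the VSMCs of either library and 12 in E10-P56 pericytes.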

How the data were processed

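The authors deposited 1 filtered matrix of UMI counts per library (8236 barcodes and 67460919 UMIs for E10-P56, 9195 and 69153173 for the adult pulse, over 28001 features). The headers of the matrices name Cell Ranger 5.0.0 (E10-P56) and 3.0.2 (adult pulse), and the submitters' processing notes name mm10. Median UMIs per barcode were 5486 and 6973. Cells under 1500 UMIs (1310 and 465) or, among the rest, over 20% mt- UMIs (247 and 21) were left out. No doublet caller was run; VSMCs with fibroblast markers at 0.25 of the fibroblast median were left out as an alternative. UMIs were summed per group and divided by non-mitochondrial UMIs; ratios carry exact conditional binomial intervals. Genes needed 100 UMIs over both groups, and 0 was taken as 3 UMIs over the group. For detection rates each cell was thinned to 1200 non-mitochondrial UMIs.

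Genes named outside the lists were the 10 highest and 10 lowest ratios of a comparison (5 and 5 between libraries) and the 20 most abundant. The cells, lists and comparisons were chosen with earlier results of these data known. On data simulated for VSMCs against pericytes (6673 genes), 162 of 162 measured genes with a 4-fold change were recovered, of 200 changed, and 3 of 6473 others passed. Python 3.11.15, numpy 2.4.6, scipy 1.17.1, pandas 2.3.3 and matplotlib 3.10.9 were used. Positions were taken from the GRCm38 annotation and promoters from RefSeq. Alternatives varied the UMI minimum, the mt- limit, both marker thresholds, the gene minimum, the pooling of cells, depth and the denominator. A few genes that the naming rule or the lists hold are not reported here.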

Additional observations from a re-analysis of the deposited data

Results flagged for a closer look

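Outside the rule, 185 E10-P56 barcodes met the marker thresholds with an mt- share over 20%. They held a median of 3095 UMIs, with Myh11 at 10738 CPM and Acta2 at 13627, against 7704 and 16960 in the VSMCs. Malat1 stood at 130644 CPM in them and at 76616 in the VSMCs. They are not among the cells described, and whether they are whole cells was not tested.

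A transcript named SSM2GFP in the reference, which neither genotype names, gave 4 UMIs in E10-P56 VSMCs (1.22 CPM, 0.333 to 3.13). It stood at 8.04 CPM in pericytes, 3.45 in other mural cells and 4.16 in fibroblasts of that library. In the adult pulse library it gave 3 UMIs in VSMCs, and stood at 36.0 CPM in pericytes and 14.9 in fibroblasts.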

How the results depend on the processing

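No paired analysis was possible because each labelling time has 1 library and no test was run; cell groups within both libraries are set side by side instead. VSMCs numbered 382 to 666 in the E10-P56 library over the alternatives, and 10 in place of 32 in the adult pulse library with Myh11 and Sorbs2 at 5000 CPM. Against pericytes, 1000 genes in place of 665 were at least 2-fold lower with a minimum of 50 UMIs per gene, and 255 were higher and 248 lower with cells thinned to 1200 UMIs. Thinning gave 241 higher and 169 lower against other mural cells, in place of 704 and 689, and 171 and 53 between libraries, in place of 702 and 242; fewer genes pass the minimum then. Between libraries the minimum of 50 gave 1104 and 503, and the 5000 threshold gave 386 lower. Mt-rich against mt-poor VSMCs, 22 higher and 110 lower, depended most on the processing. The 5000 threshold gave 5 and 11, leaving out cells with fibroblast signal 13 and 41, the minimum of 50 gave 72 and 221, and thinning 8 and 16, of which 0 and 12 were shared. With no mt- limit 47 were higher, with all UMIs as the denominator 7 were higher, and with each cell weighted alike 71 were lower; where no value above shows it, the cause was not tested. Without genes carried by 1 cell, an alternative chosen after seeing the data, the counts were 658 and 664 against pericytes and 698 and 677 against other mural cells. Fibroblast markers were higher in VSMCs than in pericytes (median 0.58) but lower without the cells of fibroblast signal (median -1.07). Those cells were picked by the same markers, so a fall was fixed in advance. Named genes were counted once per comparison, 70 in all, and values where a gene fell under the UMI minimum were left out. Of the 549 values kept under alternatives, 512 moved less than their interval, 37 more, and 0 changed sign. The 32 adult pulse VSMCs set the precision of every comparison between libraries.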
